A study of Rattus norvegicus with 32 samples.

Results

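The 10 genes described here are known to respond to glucocorticoid hormones, and were taken by their symbol on the array, as Sgk1, Tsc22d3, Pdk4, Bcl6, Cebpb, Nfkbia, Ddit4, Fkbp5, Mfsd2a and Sult1a1. Each was represented by 1 probe, so that they are 10 of the 13337 named genes and 10 of the 22523 probes of a rat expression beadchip, and all 10 passed the detection filter (above background on at least 4 of 9 arrays). They were measured in the nucleus accumbens, the ventral part of the striatum, of male Sprague-Dawley rats euthanized 1 h after a single injection of methamphetamine (METH, a psychostimulant that releases dopamine) at 20 mg/kg, or of saline. The METH group held 5 arrays and the saline group 4. Neither group carried any other treatment named in the labels, which give body weight but no age. The series held 32 arrays in all, and the 23 arrays of later times were not used, because their rows do not match the probe IDs (rank correlation with the 1 h arrays -0.0095 to 0.00062, against 0.925 to 0.961 among the 1 h arrays).

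Corticosterone, the main glucocorticoid of the rat, is released from the adrenal gland under stress and enters brain cells freely. It binds the glucocorticoid receptor, which chaperones and immunophilins hold in the cytosol, and the receptor then moves to the nucleus and acts on target genes through response elements and through other transcription factors. Several of these genes also answer to neuronal activity, cyclic AMP or inflammatory signals, so their level alone does not report the hormone. Corticosterone was not measured in these files.

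Mean intensity per array ran from 164.3 to 231.4, and 41.5% to 47.3% of probes were above background. The number of arrays limits the precision. The labels count 5 rats in each group but do not tie rats to arrays, so p-values reflect how far these arrays differ, which may be partly technical. All 9 arrays carried signal of defining striatal genes such as Drd2, Adora2a and Ppp1r1b. Levels below are normalized log2 intensities of 1 probe, which can be compared between arrays but not between genes. Changes are METH minus saline means on that scale (limma, Benjamini-Hochberg adjustment over 9987 probes, threshold 0.05).

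Of the 10 genes, 6 rose by 1 h, namely Cebpb, Pdk4, Sgk1, Nfkbia, Bcl6 and Tsc22d3, and none fell. Over all probes tested 0.491% were called higher. On the 5 METH arrays these 6 genes each lay above all 4 saline arrays, as did a seventh, Ddit4, which missed the threshold. Of all probes tested, 1.96% had every METH array above every saline array. Fkbp5, Mfsd2a and Sult1a1 overlapped between the groups. The median change of the 10 genes was 1.07, beside -0.023 for all probes. Pdk4 passed the detection filter through METH arrays alone, and was also called with no filter (adjusted p = 0.0025). The genes were picked with earlier results of these data known, so the count does not stand as independent support for a response of glucocorticoid targets.

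**Figure D1:**
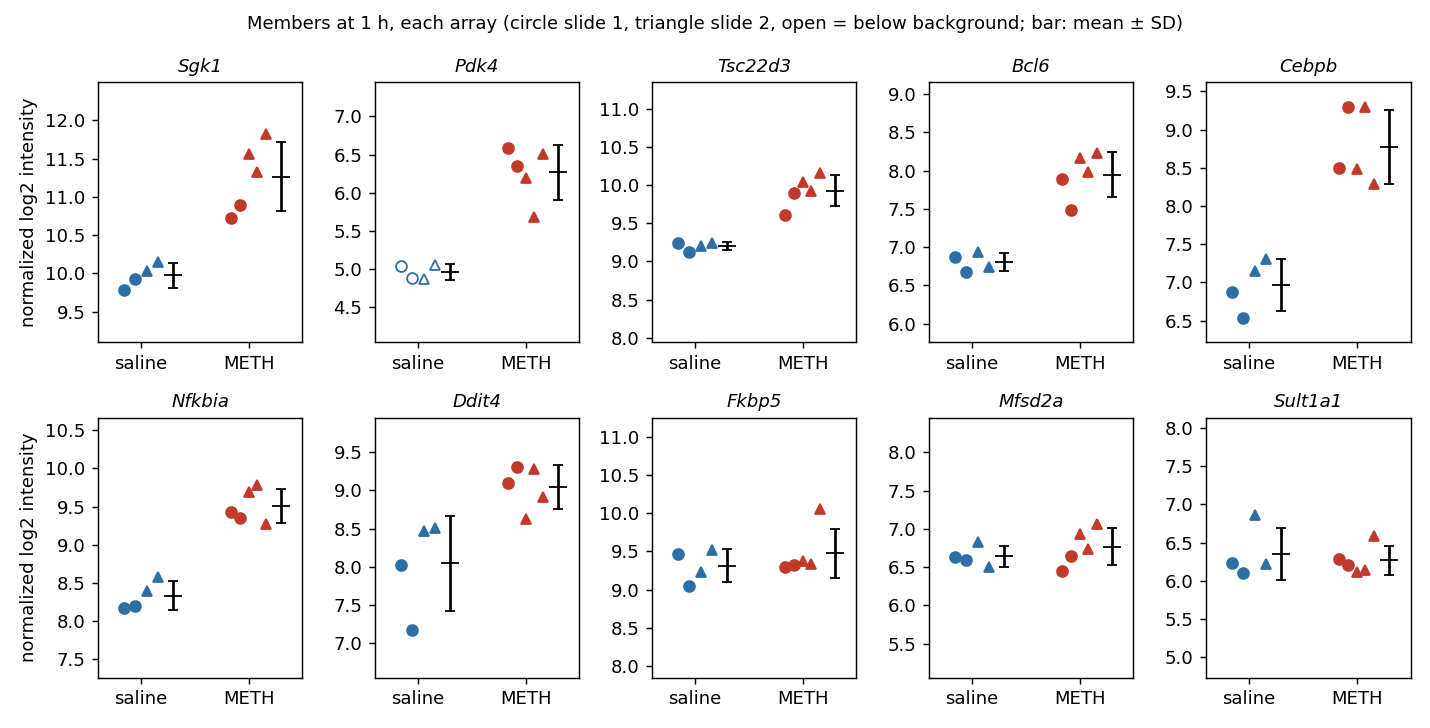
Normalized log2 intensity of each of the 10 genes on every array at 1 h, saline in blue and METH in red, with circles for slide 1, triangles for slide 2, open symbols for arrays below background and a bar for the group mean ± SD. All panels span the same number of log2 units; METH and saline points are separate for 7 genes and overlap for Fkbp5, Mfsd2a and Sult1a1.

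The stretches around the start sites of these genes are shown as a description. Each motif is given with its share of the stretches of all genes. Whether the matches exceed that share was not tested, so they are not a result about the genes that rose. RefSeq (GRCr8) gave 13 stretches, each from 250 bases before to 50 after a start, for 9 of the genes. The full glucocorticoid response element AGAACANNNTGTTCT was in none of the 13, and in 0.0149% of the 33469 stretches of all genes. Its single hexamer AGAACA was found for Sult1a1, which did not rise, and is in 20.7% of all stretches. The cyclic AMP response element TGACGTCA (in 1.83% of all) and the NF-kappaB site GGGACTTTC (in 0.326%) were in none of the 13. A pair of looser motifs was added after these gave 1 match: the TGACG core of the cyclic AMP response element, which TGACGTCA contains, in 21.2% of all stretches, and a kappaB-like site GGAAANNCC, in 6.05%. The core stood 3 times before Cebpb, at -234 to -230, -107 to -103 and -61 to -57 from the start, 2 times before Bcl6 and 2 times before 1 start of Tsc22d3. The kappaB-like site stood 2 times before Nfkbia, at -180 to -172 and -31 to -23, and 1 time before the same start of Tsc22d3. No searched motif was found for Sgk1, Pdk4, Ddit4 or Fkbp5. Both strands were searched, a match is a description of letters, and no match covers only these letters in this window. In the sequences below capitals mark the matches, with Cebpb, Nfkbia and Tsc22d3 from the genes that rose and Sult1a1 and Fkbp5 from those that did not. Sgk1 and Pdk4, which rose and held no searched motif, are not printed.
Cebpb, chr3:176816755-176817054, plus strand: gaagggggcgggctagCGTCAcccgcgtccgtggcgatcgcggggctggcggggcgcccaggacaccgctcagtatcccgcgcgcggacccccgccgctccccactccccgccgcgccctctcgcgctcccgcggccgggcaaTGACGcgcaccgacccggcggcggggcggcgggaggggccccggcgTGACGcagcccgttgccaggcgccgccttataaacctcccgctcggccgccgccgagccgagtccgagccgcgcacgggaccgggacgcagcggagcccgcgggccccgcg
Nfkbia, chr6:78597023-78597322, minus strand: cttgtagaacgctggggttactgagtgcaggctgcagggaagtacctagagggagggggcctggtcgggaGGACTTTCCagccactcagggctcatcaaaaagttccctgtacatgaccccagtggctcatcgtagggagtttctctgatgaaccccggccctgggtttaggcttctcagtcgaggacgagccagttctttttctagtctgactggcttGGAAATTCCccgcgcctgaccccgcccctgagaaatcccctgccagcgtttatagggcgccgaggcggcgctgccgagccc
Tsc22d3, chrX:109009985-109010284, minus strand: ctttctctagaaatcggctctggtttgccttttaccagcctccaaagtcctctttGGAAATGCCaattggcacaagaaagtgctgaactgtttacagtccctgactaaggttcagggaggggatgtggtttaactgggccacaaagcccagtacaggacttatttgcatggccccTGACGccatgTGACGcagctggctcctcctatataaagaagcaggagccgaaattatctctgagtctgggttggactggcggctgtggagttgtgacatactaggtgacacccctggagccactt
Sult1a1, chr1:190706063-190706362, minus strand: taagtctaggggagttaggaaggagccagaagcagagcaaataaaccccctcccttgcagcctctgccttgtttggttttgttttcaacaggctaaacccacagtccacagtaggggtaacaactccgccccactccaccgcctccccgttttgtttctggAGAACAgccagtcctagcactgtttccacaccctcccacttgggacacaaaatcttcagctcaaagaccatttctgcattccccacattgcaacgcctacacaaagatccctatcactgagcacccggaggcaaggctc
Fkbp5, chr20:6543506-6543805, minus strand: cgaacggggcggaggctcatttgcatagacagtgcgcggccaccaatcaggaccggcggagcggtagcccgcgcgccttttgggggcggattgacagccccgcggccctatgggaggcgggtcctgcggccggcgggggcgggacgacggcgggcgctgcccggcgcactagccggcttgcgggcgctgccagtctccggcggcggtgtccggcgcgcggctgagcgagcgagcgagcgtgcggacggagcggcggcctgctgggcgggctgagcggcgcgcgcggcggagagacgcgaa

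Among the kinases, Sgk1 encodes serum- and glucocorticoid-regulated kinase, which adjusts ion channels and transporters. Its level was 10.72, 10.90, 11.56, 11.32 and 11.82 on METH arrays 1 to 5 and 9.78, 9.93, 10.04 and 10.15 on saline arrays 1 to 4. The lowest METH array stood above the highest saline array, and the METH arrays of slide 2 (3 to 5) were higher than those of slide 1. Sgk1 rose 2.45-fold (log2 change 1.29, 95% interval 0.85 to 1.74, adjusted p = 0.0098). It was 0.96 within slide 1 (adjusted p = 0.0127) and 1.47 within slide 2 (adjusted p = 0.070). Whether the change differs between slides was not tested. The call was lost without saline array 1 (adjusted p = 0.055) and without saline array 2 (0.059).

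Pdk4 encodes a pyruvate dehydrogenase kinase, which slows the entry of glucose carbon into the citric acid cycle. The deposited intensity was 88.9, 83.5, 68.3, 34.2 and 73.4 on METH arrays 1 to 5 and 13.6, 6, 5.8 and 11.5 on the saline arrays. All 5 METH arrays were above background and none of the 4 saline arrays was. The mean with METH was therefore at least 1.97-fold that with saline, computed against each saline array's lowest detected signal, a bound that leaves out the spread between arrays. The fitted log2 change was 1.30 (95% interval 0.93 to 1.68, adjusted p = 0.0023) and depended on how dim values were treated, with 1.93 without neqc's correction and 2.05 in unscaled values. Pdk4 kept its call without each of the 9 arrays.

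The other kinases and enzymes that act with these proteins did not pass. Pdk1, Pdk2 and Pdk3, the other pyruvate dehydrogenase kinases, had changes of 0.26, -0.17 and 0.14. The phosphatase gene Pdp1, which reverses their action, was at 0.65 (adjusted p = 0.061). Nedd4, a ubiquitin ligase gene, was at -0.19, and Ndrg1, whose protein is a known substrate of the Sgk1 kinase, was at 0.30.

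Among the regulators of transcription, Cebpb had the largest fitted change of the 10 genes, although that of Pdk4 is known only as a lower bound and the values were close without neqc's correction (1.94 and 1.93). It encodes a bZIP factor of the C/EBP family that acts in acute-phase and metabolic responses. Its level was 8.49, 9.30, 8.49, 9.29 and 8.29 on METH arrays 1 to 5, against 6.87, 6.54, 7.15 and 7.30 on saline arrays 1 to 4. METH arrays 2 and 4 were the high ones, a different order from that of Sgk1. Cebpb rose 3.49-fold (log2 change 1.80, 95% interval 1.29 to 2.32, adjusted p = 0.0023), with 2.19 within slide 1 and 1.46 within slide 2 (adjusted p = 0.164). Its relatives Cebpa and Cebpg were at 0.030 and 0.21, and the stress factor gene Ddit3, of the same family, at 0.49, none past the threshold.

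Bcl6, a zinc finger repressor gene, was at 7.89, 7.48, 8.16, 7.98 and 8.23 on METH arrays 1 to 5. Saline arrays 1 to 4 were at 6.86, 6.67, 6.94 and 6.74, all below the METH arrays. Bcl6 rose 2.21-fold (log2 change 1.15, 95% interval 0.80 to 1.49, adjusted p = 0.0034) and kept its call without each of the 9 arrays, though not within slide 1 (0.92, adjusted p = 0.254) or slide 2 (1.28, adjusted p = 0.072) alone.

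Tsc22d3 encodes GILZ, the glucocorticoid-induced leucine zipper protein, which restrains AP-1 and NF-kappaB. It was at 9.61, 9.89, 10.03, 9.93 and 10.16 on METH arrays 1 to 5 and at 9.24, 9.13, 9.20 and 9.24 on the saline arrays. The saline arrays lay close together, with an SD of 0.052 (n = 4), and METH array 1 was the nearest to them. Tsc22d3 rose 1.65-fold (log2 change 0.72, 95% interval 0.45 to 0.99, adjusted p = 0.0183), the smallest rise of the 6. Its call was the least stable, since it was lost without any 1 of saline arrays 1 to 4 or METH arrays 3 and 4 (adjusted p 0.055 to 0.094). It was also lost within slide 1 (0.56, adjusted p = 0.347) and within slide 2 (0.82, adjusted p = 0.186).

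Of the inhibitors of signalling, Nfkbia encodes IkappaB-alpha, which holds NF-kappaB in the cytosol and is itself an NF-kappaB target. It was at 9.42, 9.34, 9.69, 9.78 and 9.27 on METH arrays 1 to 5 and at 8.17, 8.20, 8.39 and 8.58 on the saline arrays. The groups were well apart and the METH arrays of both slides were at similar levels. Nfkbia rose 2.24-fold (log2 change 1.17, 95% interval 0.86 to 1.47, adjusted p = 0.0013), with 1.20 within slide 1 and 1.09 within slide 2 (adjusted p = 0.148). The other listed genes of the pathway that were tested did not pass. Changes were -0.013 for the sister inhibitor Nfkbib, 0.017 for the NF-kappaB subunit Rela, and -0.060 and 0.049 for the kinase genes Chuk and Ikbkb. Nfkb1, Nfkb2, Nfkbie, Rel, Relb, Tnfaip3 and Ikbkg were listed but not tested.

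Ddit4 encodes REDD1, which lowers mTORC1 activity under stress. Its level was 9.09, 9.31, 8.62, 9.28 and 8.92 on METH arrays 1 to 5 and 8.02, 7.17, 8.47 and 8.51 on saline arrays 1 to 4. The groups did not overlap, but saline array 2 was far below the other saline arrays and the saline SD was 0.62 (n = 4), the largest of the 10 genes. The log2 change was 1.00 (95% interval 0.45 to 1.54) and missed the threshold (adjusted p = 0.155). Within slide 1, which holds saline array 2, it was 1.60 and passed (adjusted p = 0.028), and within slide 2 it was 0.45 (adjusted p = 0.626). Without saline array 2 it was 0.71 (adjusted p = 0.297). It also passed in unscaled values, at 1.32 (adjusted p = 0.023), where the median of all probes was 0.23. Mtor, Rptor and Tsc2 of the same pathway were at 0.059, 0.14 and 0.037, none past the threshold.

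The remaining 3 genes did not pass. Fkbp5 encodes FKBP51, an immunophilin that lowers the hormone affinity of the glucocorticoid receptor and is widely used as a readout of receptor activity. It was at 9.29, 9.32, 9.37, 9.34 and 10.05 on METH arrays 1 to 5, and at 9.46, 9.05, 9.23 and 9.52 on saline arrays 1 to 4. METH arrays 1 to 4 lay inside the saline range and METH array 5 above it. The log2 change was 0.16 (95% interval -0.21 to 0.53, adjusted p = 0.762), and without METH array 5 it was 0.015. The interval runs up to 0.53, so a rise of up to that size could have been missed with these arrays. That upper end lies within the interval of Tsc22d3 (0.45 to 0.99), which was called. Other immunophilin genes, Fkbp1a, Fkbp2, Fkbp3 and Fkbp8, had changes of -0.10, -0.23, -0.078 and -0.085, none past the threshold.

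Mfsd2a, which encodes a lipid carrier of the blood-brain barrier, was at 6.45, 6.64, 6.94, 6.73 and 7.06 on METH arrays 1 to 5. Saline arrays 1 to 4 were at 6.64, 6.59, 6.83 and 6.50, so that 2 METH arrays exceeded all of them and 1 fell below them. Its log2 change was 0.12 (95% interval -0.20 to 0.45, adjusted p = 0.790). Sult1a1, a phenol sulfotransferase gene, was at 6.29, 6.21, 6.12, 6.14 and 6.59 on METH arrays 1 to 5 and at 6.23, 6.10, 6.86 and 6.22 on the saline arrays. Saline array 3 was its highest array. Its log2 change was -0.083 (95% interval -0.46 to 0.29, adjusted p = 0.891), and the sign turned without saline array 3 (0.086).

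**Figure D2:**
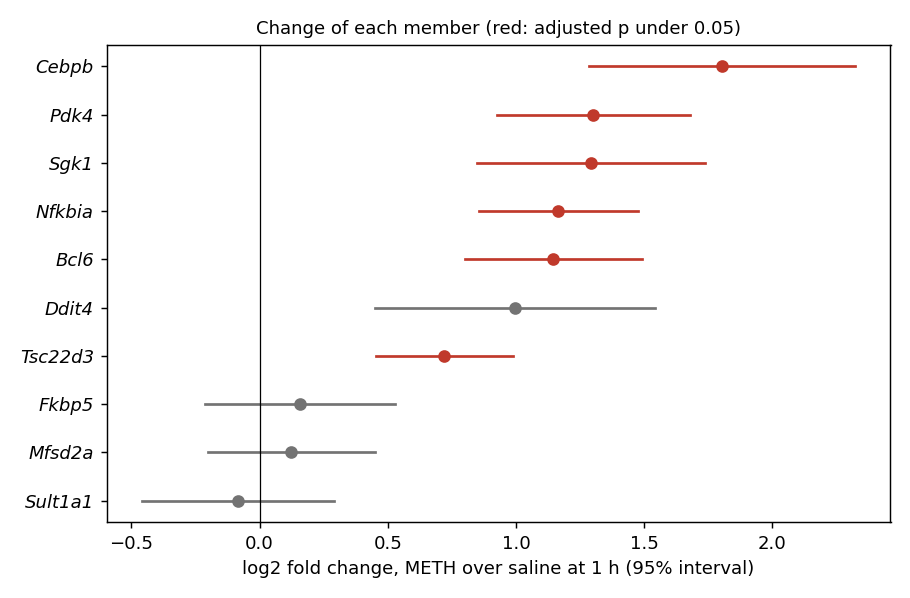
Log2 change of each gene, METH over saline at 1 h, with its 95% interval from limma, ordered by size, red where the adjusted p was under 0.05. The intervals of Fkbp5, Mfsd2a and Sult1a1 span 0, and that of Cebpb, 1.29 to 2.32, lies highest.

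Whether the genes that rose changed more than Fkbp5 was tested on differences within each array, a test added after the data were seen. Each of 8 genes was set against Fkbp5, leaving out Pdk4 because no saline array detected it, with an exact permutation test over the 126 regroupings of the 9 arrays (two-sided, smallest possible p 0.0159). For Cebpb the change exceeded that of Fkbp5 by 1.64, for Sgk1 by 1.13, for Nfkbia by 1.01, for Bcl6 by 0.99 and for Tsc22d3 by 0.56. All 5 reached the smallest p (exact permutation p adjusted over the 8 tests 0.0254), with the difference larger on 5 of 5 METH arrays than on any saline array. For Ddit4 the excess was 0.84, larger on 4 of 5 METH arrays (exact p = 0.063, adjusted 0.085). For Mfsd2a the difference was -0.035 and for Sult1a1 -0.24 (adjusted exact p = 0.825 and 0.381). As Fkbp5 was known not to pass when it was picked, these values describe the contrast and are not independent support.

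Patterns over the 9 arrays were compared by the mean absolute difference, per array, of the deviations from the saline mean, where a small value means a like pattern. Nearest to Sgk1 were the ERK phosphatase gene Dusp6 (mean difference 0.17), Coq10b (0.21), a coenzyme Q binding protein gene, and the early gene Ier5 (0.24). Of these Ier5 did not pass the threshold (limma, adjusted p = 0.153). Nearest to Cebpb were Gadd45g (0.25), a growth arrest gene, Junb (0.32), a partner of Fos, and Nfil3 (0.32), a bZIP repressor gene. Nearest to Tsc22d3 were Uspl1 (0.131), Uap1 (0.137) and Rasd1 (0.147), the last a small GTPase gene first found as dexamethasone-induced. Uspl1 and Rasd1 did not pass the threshold (limma, adjusted p = 0.206 and 0.055). Nearest to Fkbp5 were Chgb (0.059), Wasf1 (0.068) and Slain2 (0.070), none past the threshold (adjusted p 0.61 to 0.81). Closeness at this scale is easier for genes with small changes, so the 4 sets of distances do not compare with each other.

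Other targets of the hormone, from a list of 51 symbols of which 40 had a named probe and 30 were tested, gave 4 that rose and none that fell, beside the 0.491% called higher over all probes. They were Dusp1 (log2 change 2.69), a MAP kinase phosphatase gene, Nfil3 (1.88), Gadd45g (1.63) and the clock gene Per1 (1.28). The median of the 30 was 0.32, beside -0.023 for all probes, and 20 lay above 0. At an unadjusted p under 0.05 were 19 of the 30 (limma), beside 11% of all probes tested. These 19 changed in both directions. Those that missed the threshold included Klf4 (1.03, adjusted p = 0.058), Rasd1 (0.80, 0.055), Errfi1 (0.77, 0.173) and Klf9 (0.45, 0.173), and also Mt1 (-0.76, 0.213), a metallothionein gene, and Agt (-1.45, 0.206), the angiotensinogen gene of astrocytes. Gjb6, Txnip and Sesn1 were at 0.039, -0.24 and 0.070. As among the 10 genes, some targets rose by 1 h and others did not pass. This list too was written with earlier results of these data known. Its counts therefore do not stand as independent support for a response of glucocorticoid targets.

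For the receptor and its helpers, 20 symbols were written, 13 had a named probe and 9 were tested. None of the 9 passed (limma, 2 at an unadjusted p under 0.05, beside 11% of all probes tested). The probe of Nr3c1, the glucocorticoid receptor gene, was above background on 0 of 9 arrays, so no change can be given for it. Nr3c2, the mineralocorticoid receptor gene, had a log2 change of 0.035 (95% interval -0.25 to 0.32, adjusted p = 0.946). Hsd11b1, which encodes an enzyme that regenerates active hormone inside cells, was at -0.24 (95% interval -0.63 to 0.16, adjusted p = 0.668), and Fkbp4 had no named probe here. Among chaperones Dnajb1 was at 1.12 (adjusted p = 0.058) and Hsp90aa1 at 0.47 (adjusted p = 0.446). For relatives and partners of the 10 genes, 59 symbols were written, 43 had a named probe and 31 were tested. None of the 31 passed (limma, 3 at an unadjusted p under 0.05, beside 11% of all probes tested), and their median was 0.016.

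Markers of cell types are given beside these results. The medians of cortical and striatal neuron markers lay outside the saline range on most METH arrays but not on METH array 2. For astrocytes, oligodendrocytes and microglia the median changes between groups, given below, were small, but single METH arrays left the saline range. On METH array 5 the microglia median stood at -0.44 (saline -0.15 to 0.12). The oligodendrocyte median there was -0.29 (saline -0.18 to 0.13) and that of astrocytes 0.15 (saline -0.095 to 0.085). The median of 7 tested cortical neuron markers (of 15 written) stood 0.64, -0.47, 0.96, 1.44 and 2.04 from the saline mean on METH arrays 1 to 5 and between -0.48 and 0.48 on the saline arrays. Slc17a7, Neurod2, Neurod6 and Neurod1 were above background on 4, 4, 4 and 3 of 5 METH arrays. They were so on 2, 1, 3 and 1 of 4 saline arrays, and would not have passed the detection filter on saline arrays alone. The marker median and the covariate below therefore rest in part on genes kept through the METH arrays. None of the 7 was called (limma, 4 at an unadjusted p under 0.05, beside 11% of all probes tested). Their level summed on the linear scale was 2903 to 4113 with METH and 2800 to 3879 with saline. Lamp5, whose probe weighs most in that sum on average, had a change of -0.35, whereas the other 6 lay between 0.60 and 1.80. Sgk1 stood 0.75, 0.92, 1.59, 1.35 and 1.85 above its saline mean on the same METH arrays. On METH array 2, which had the lowest marker median of the METH arrays, Bcl6 was at its lowest METH value (0.68), Sgk1 and Tsc22d3 (0.69) at their second lowest, and Cebpb at its highest (2.33). With that median as a covariate Sgk1 was at 0.94 (adjusted p = 0.027), Bcl6 at 0.92 (0.014), Cebpb at 2.01 (0.0019), Pdk4 at 1.34 (0.0069) and Nfkbia at 1.10 (0.0046). Tsc22d3 was then at 0.62 and no longer passed (adjusted p = 0.065).

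The 17 tested striatal markers had a median change of -0.45 with none called. At an unadjusted p under 0.05 were 11 of the 17 (limma), beside 11% of all probes tested. Arpp21, among these 11, went the other way (0.63) and was the only 1 of the 17 above 0. The summed level of the 17 was 13520 to 24637 with METH and 24518 to 28595 with saline. In this bulk tissue, fewer cells of a type and less RNA per cell cannot be told apart. The 10 tested endothelial markers, of cells that carry Mfsd2a, had a median of -0.21. Of these 1 fell, Sox18 (-0.66, adjusted p = 0.038), above background on 1 of 5 METH arrays. Over all probes tested, 3 were called lower. Of the 10 endothelial markers, 4 had an unadjusted p under 0.05 (limma), beside 11% of all probes tested. These were Egfl7, Sox17, Sox18 and Emcn, all lower with METH. The summed level of the 10 was 2271 to 3066 with METH and 2970 to 3328 with saline. No tested marker of astrocytes (9, median -0.068), oligodendrocytes (11, 0.044), microglia (8, -0.067), choroid plexus (3, -0.19) or blood (2, -0.56) was called. At an unadjusted p under 0.05 were 1, 1, 1, 0 and 0 of them (limma), beside 11% of all probes tested. Choroid plexus Kl, Folr1, Clic6 and Aqp1 and blood Hba-a2 and Alas2 were above background on no array. What part the makeup of the dissected tissue has in the changes of the 10 genes was not tested beyond the covariate values above.

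**Figure D3:**
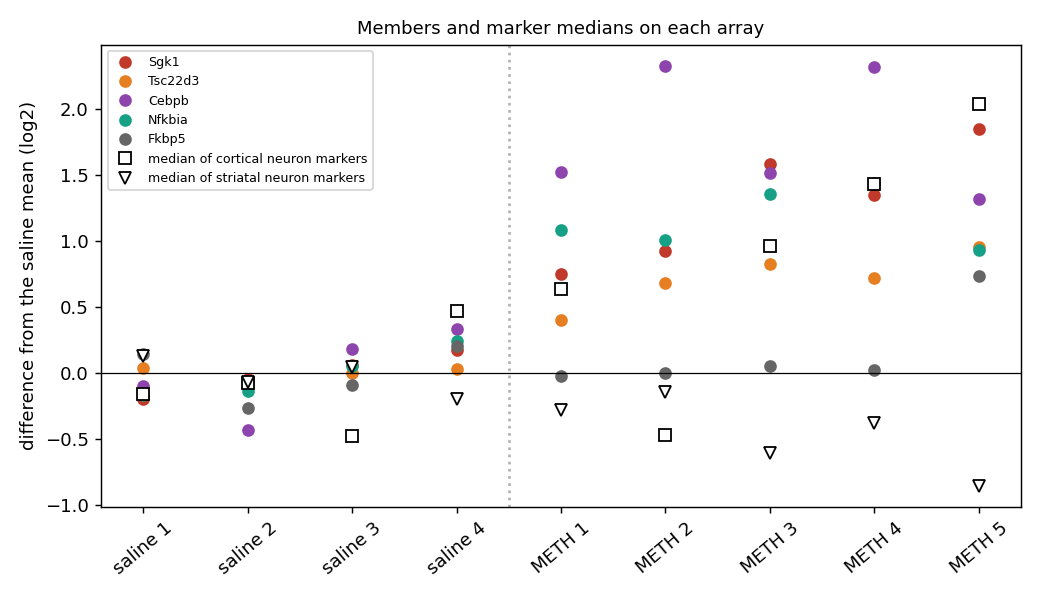
Difference from the saline mean (log2) on each of the 9 arrays for Sgk1, Tsc22d3, Cebpb, Nfkbia and Fkbp5 (filled) and the medians of cortical (squares) and striatal (triangles) neuron markers. On METH array 2, where the cortical median is -0.47, Tsc22d3 stands at 0.69, Sgk1 at 0.92, Nfkbia at 1.01 and Cebpb at 2.33; on METH array 5 Fkbp5 stands at 0.73 and the cortical median at 2.04.

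The 6 genes that rose stayed above 0 in all 119 values that could be computed for them under other settings or with 1 array left out. Nfkbia passed in 19 of its 20, Cebpb in 19 of 20, Pdk4 in 18 of 19, Bcl6 in 18 of 20, Sgk1 in 17 of 20 and Tsc22d3 in 11 of 20. Fkbp5, Mfsd2a and Sult1a1 passed in none of theirs (limma, smallest adjusted p 0.214, 0.255 and 0.529). Within slide 2, which held 3 METH and 2 saline arrays, none of the 10 genes passed, and all 6 were above 0. There 6 of the 10 had an unadjusted p under 0.05, as had 8.71% of all probes tested.

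**Figure D4:**
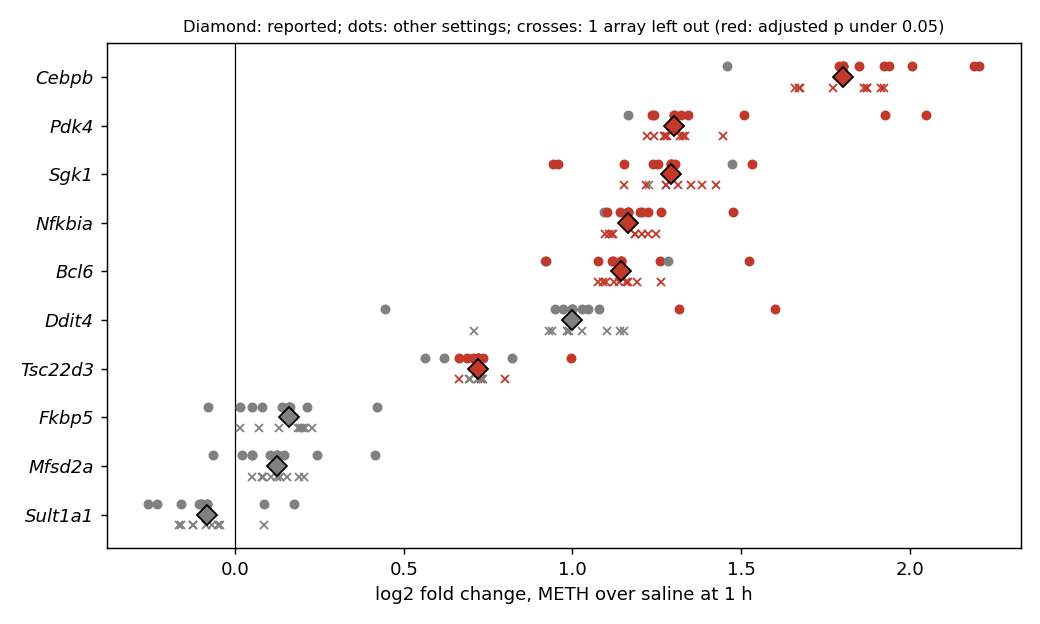
Log2 change of each gene as reported (diamond), under other settings (dots) and with 1 array left out (crosses), red where the adjusted p was under 0.05. Tsc22d3 turns grey in 9 of its 20 alternatives, and Ddit4 turns red in 2.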

How the data were processed

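Illumina beadchips measured total RNA from the nucleus accumbens. BeadStudio made the deposited intensities, as the submitters' processing notes name it, with its version not given in the sources used here. They hold values below 0 and differ in total between arrays, so they appear background-subtracted and unscaled. The 2 deposited tables held the same intensities (largest difference 0). The deposited detection p-value was used for the 9 arrays at 1 h. In the later run, 23 columns of that heading are high for bright probes and were not used.

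The 9 arrays were normalized with neqc in limma 3.58.1 (R 4.3.3), in which detection p-values set the background, 16 is added, and values are quantile-normalized on the log2 scale. Fold changes of dim probes are understated by the offset. The 9987 probes that 4 or more arrays detected (p under 0.05) entered two-sided tests by lmFit and eBayes, the prior variance following intensity. The fit was tested on simulated data with independent noise and no differences between slides or in array quality, so that test does not cover those. Gene names came from the platform annotation (13793 of 22523 probes with 1 name, none with several), with 0 names changed through the RefSeq table. Where a gene had several probes, the brightest stood for it; each of the 10 genes had 1, so the alternative of other probes did not arise.

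The genes, lists and tests were chosen with earlier results of these data known. All 10 genes were named, with up to 6 past-threshold genes of each list of targets, helpers and relatives, up to 2 of each list of cell markers, Nr3c1, Nr3c2, Hsd11b1 and Fkbp4 whatever their values, and the 3 genes most like Sgk1, Cebpb, Tsc22d3 and Fkbp5, leaving out predicted loci. Other listed genes were named after their values were seen. Slides, read from the leading number of the column headings, each held both groups. Alternatives were no neqc correction, unscaled values (both with intensities under 16 set to 16), other detection filters, no trend, weighted arrays, blocks for slide or for replicate number, each slide alone, a cortical marker covariate, and each array left out. With arrays left out or single slides, normalization and tested probes were kept.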

Additional observations from a re-analysis of the deposited data

Results flagged for a closer look

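Among the METH arrays, the level of Fkbp5 on METH array 5 (10.05, normalized log2 intensity) stood far from the others, the nearest being 9.37. The gap was 0.90 of the whole range, above Dixon's critical value of 0.71 for 5 samples. Of 20 groups examined (10 genes in 2 groups) 1 stood apart in this way, and chance alone sets apart about 1 in 20. Without this array the log2 change of Fkbp5 was 0.015. METH array 5 also had the lowest weight of the 9 arrays where arrays were weighted (0.256), and the highest cortical marker median (2.04). Whether these bear on its Fkbp5 level was not tested.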

How the results depend on the processing

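Of 199 values of single genes under alternatives, 175 kept their direction and their side of the threshold, 17 fell short of it, 2 passed it (both Ddit4) and 5 changed sign, all of them of genes that had not passed. The 5 were Fkbp5 with the cortical marker covariate (-0.080), Mfsd2a within slide 1 (-0.066), and Sult1a1 in unscaled values (0.17), within slide 1 (0.085) and without saline array 3 (0.086, the range over left-out arrays being -0.17 to 0.086). The cause was not tested. In unscaled values all probes shifted up by a median of 0.23, and Sult1a1 lies below that shift. Of the 10 genes, 6 passed as reported, 4 to 6 with 1 array left out, 6 with a slide term, 5 on slide 1 alone and 0 on slide 2 alone (limma, 6 at an unadjusted p under 0.05, beside 8.71% of all probes there); the cause was not tested. The 5 on slide 1 are Sgk1, Pdk4, Cebpb and Nfkbia, that is 4 of the 6, and Ddit4. Over all probes 52 passed, against 225 in unscaled values, 251 with array weights, 79 with the cortical covariate, 16 within slide 2 and 31 to 250 with 1 array left out, the highest without METH array 2 and the lowest without saline array 2 (33 without saline array 3). With the replicate number as a block, which takes METH array 5 out since no saline array shares its number, 82 probes and 6 of the 10 genes passed. The numbers were not taken as pairs, because same-numbered arrays correlated at 0.072, 0.080, 0.095 and 0.25 in their deviations and 1 of 4 METH arrays correlated best with its own number.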
